A study of Arabidopsis thaliana with 4 samples.

Results

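The glutathione S-transferases of the tau and phi classes are described here in Arabidopsis thaliana seedlings overexpressing the basic helix-loop-helix (bHLH) transcription factor HBI1, a regulator of hormone signalling and immunity. The 41 genes were taken by locus, 28 of the tau class (GSTU1 to GSTU28) and 13 of the phi class (GSTF2 to GSTF14), out of 33518 loci in the count tables. All 41 have a row in each of the 4 libraries. Whole seedlings were sampled after 5 days on plates under constant light, with 2 libraries of the wild-type accession Col-0 and 2 of HBI1-Ox, which carries 35S::HBI1-YFP. The 35S promoter is active in most plant tissues, and HBI1-Ox was the only overexpressing genotype set beside Col-0, so effects of HBI1 level and other differences of that genotype cannot be told apart.

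These enzymes join the tripeptide glutathione to reactive or toxic molecules, which marks the products for transport into the vacuole by pumps of the ABCC family. Tau and phi are the large plant classes, and most of their genes lie in tandem clusters that arose by local duplication. Many members are known for strong induction by pathogens, salicylic acid, oxidants and herbicides, partly through TGA factors that bind the as-1 element. Others have set places in metabolism: GSTF6 serves camalexin synthesis, GSTF12 carries anthocyanins, and GSTU20 and GSTF11 belong to aliphatic glucosinolate synthesis.

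The sequences just before the gene start are shown first for GSTF2, GSTF3, GSTF7 and GSTU12, which are 4 of the 5 members that were lower in HBI1-Ox under every processing tried. Those of GSTU5 and GSTU25 follow, because, apart from the sparsely counted GSTF13, these tested members had the largest ratios between the Col-0 libraries. Each is the 250 bases before the RefSeq gene start in build TAIR10.1, read 5′ to 3′ on the strand of the gene. Capitals mark the as-1 core TGACG, the W-box core TTGAC, the G-box CACGTG (a core motif of many bHLH factors) and the E-box CATGTG, in either orientation; the as-1 and W-box cores overlap where they share bases.
GSTF2 (chr4:1112034-1112283, minus strand): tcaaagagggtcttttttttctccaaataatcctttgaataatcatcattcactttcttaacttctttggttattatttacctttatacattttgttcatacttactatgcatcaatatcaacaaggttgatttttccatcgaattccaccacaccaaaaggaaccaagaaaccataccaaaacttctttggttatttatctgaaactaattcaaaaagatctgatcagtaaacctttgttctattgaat
GSTF3 (chr2:852322-852571, minus strand): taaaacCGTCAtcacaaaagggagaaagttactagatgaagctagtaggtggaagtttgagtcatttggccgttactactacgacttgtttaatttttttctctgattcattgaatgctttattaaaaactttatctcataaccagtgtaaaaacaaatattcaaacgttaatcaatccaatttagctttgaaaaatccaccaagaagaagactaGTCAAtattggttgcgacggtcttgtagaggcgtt
GSTF7 (chr1:659981-660230, minus strand): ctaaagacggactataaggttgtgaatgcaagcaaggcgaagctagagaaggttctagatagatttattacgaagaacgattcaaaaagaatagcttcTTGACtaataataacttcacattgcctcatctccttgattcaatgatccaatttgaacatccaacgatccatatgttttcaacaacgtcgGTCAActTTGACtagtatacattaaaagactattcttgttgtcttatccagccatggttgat
GSTU12 (chr1:26335631-26335880, minus strand): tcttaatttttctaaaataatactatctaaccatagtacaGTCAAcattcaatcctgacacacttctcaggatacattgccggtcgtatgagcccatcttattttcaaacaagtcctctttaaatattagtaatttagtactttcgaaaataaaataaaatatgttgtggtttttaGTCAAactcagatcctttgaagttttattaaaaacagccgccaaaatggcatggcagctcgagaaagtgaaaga
GSTU5 (chr2:12625791-12626040, minus strand): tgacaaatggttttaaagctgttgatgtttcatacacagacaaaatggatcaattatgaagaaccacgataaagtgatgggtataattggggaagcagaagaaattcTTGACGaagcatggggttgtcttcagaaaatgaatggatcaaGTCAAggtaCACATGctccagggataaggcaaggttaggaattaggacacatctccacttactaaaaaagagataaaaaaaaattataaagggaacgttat
GSTU25 (chr1:5871774-5872023, plus strand): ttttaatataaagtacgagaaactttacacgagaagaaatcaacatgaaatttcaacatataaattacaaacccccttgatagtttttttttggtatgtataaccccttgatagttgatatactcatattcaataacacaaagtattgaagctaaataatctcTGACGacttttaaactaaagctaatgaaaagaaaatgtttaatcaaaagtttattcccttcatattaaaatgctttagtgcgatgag
GSTF7 held 3 W-box cores, the last at bases -55 to -51 from the start. GSTF2 held none of the 4 motifs in this window. The plot of motif positions shows the matches in the sequences above. GSTF6, also lower under every processing tried, is not shown. Its window held 1 G-box CACGTG and 1 W-box core.

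**Figure D1:**
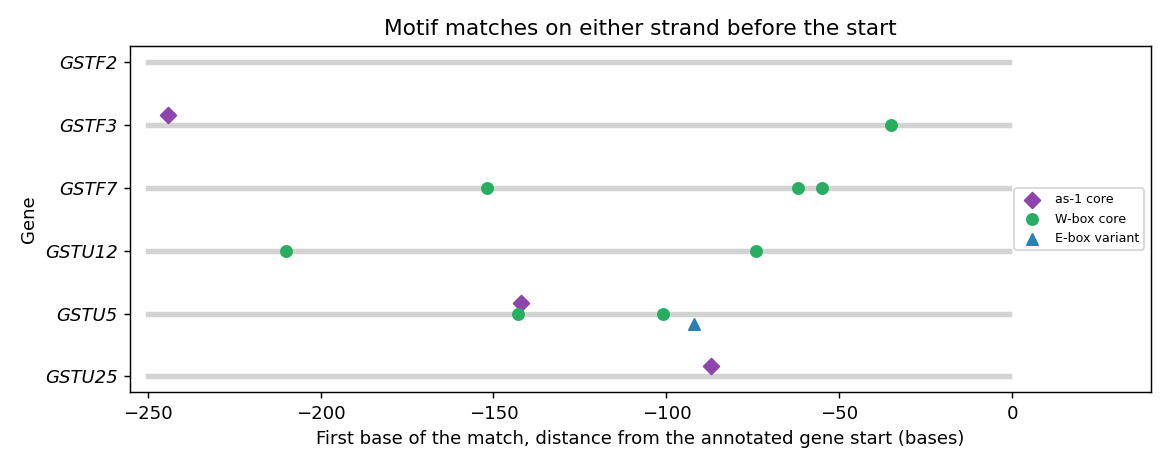
Positions of motif matches (points, by the first base of the match) in the 250 bases before the annotated start of 6 genes; the horizontal axis is distance from the start in bases. W-box cores are seen in GSTF3, GSTF7, GSTU12 and GSTU5, the as-1 core in GSTF3, GSTU5 and GSTU25, and no match in GSTF2.

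Reads on genes ranged from 10785178 to 19647745 per library. HBI1 itself was at 99.3 and 84.6 CPM in the Col-0 libraries and at 1570 and 1510 CPM in the HBI1-Ox libraries (CPM: reads of a gene relative to the TMM-scaled library total), and its reads do not separate the introduced from the native copy. Between the HBI1-Ox libraries the mean chi-square per gene was 1.23, near the value of pure counting error, and between the Col-0 libraries it was 7.77. Whether same-group libraries stem from different cultures is not in the labels; p-values therefore reflect spread among these 4 libraries, which may be technical. In RNA of whole seedlings, fewer cells of a type and less RNA per cell cannot be told apart.

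More of these transferase genes were lower than higher in HBI1-Ox, and every change of at least 2-fold that passed was a fall. Of the 41 members 35 had enough reads to be tested. In edgeR's quasi-likelihood test, with adjusted p under 0.05 over all 20320 genes, 12 were lower and 2 higher, and 21 did not pass. Among all tested genes 7.15% were lower and 8.33% higher. Falls of at least 2-fold numbered 7 among the members, against 2.53% of all tested genes, and no member that passed rose 2-fold. The median log2 change of the 35 was -0.32, against -0.012 for all tested genes, and the median size of change without sign was 0.61 against 0.18. GSTU12 passed the low-count filter through its Col-0 reads alone, so it could be tested only because it was high there. The HBI1-Ox libraries lay below both Col-0 libraries for 21 of the 35 members (31% of all tested genes) and above both for 9 (29.7%), and the groups overlapped for 5. The authors' deposited table lists 11 members, 10 with a log2 value below 0 and GSTU17 with 0.81; GSTU14, GSTU26 and GSTU27, called here, are not among those 11.

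**Figure D2:**
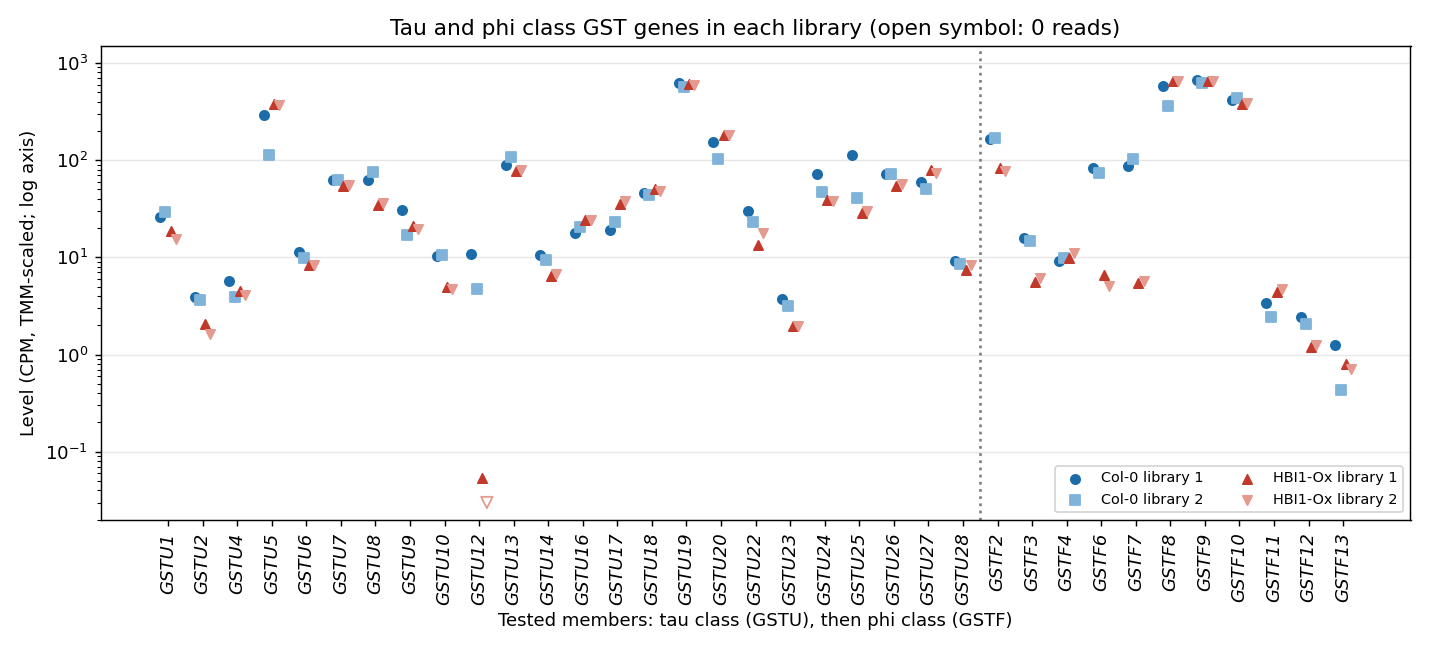
Level of each tested member in each library (CPM, log axis); circles and squares are Col-0 libraries 1 and 2, upright and inverted triangles HBI1-Ox libraries 1 and 2 (open symbol: 0 reads), and the dotted line separates the tau from the phi class. GSTF6, GSTF7 and GSTU12 stand far lower in both HBI1-Ox libraries, while GSTU19, GSTF9 and GSTF10 lie close together in all 4.

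The deepest falls in the phi class were in GSTF6 and GSTF7, neighbours in the GSTF4 to GSTF7 cluster. GSTF7 (AT1G02920; chromosome 1, 658578 to 659980, minus strand, 3 exons) is a pathogen-responsive phi gene. It was at 87.6 and 102 CPM in Col-0 libraries 1 and 2 and at 5.43 and 5.69 CPM in HBI1-Ox libraries 1 and 2. GSTF6 (AT1G02930; chromosome 1, 661088 to 662475, minus strand, up to 4 exons), whose protein conjugates glutathione to an indole intermediate of camalexin, was at 82.8 and 74.2 CPM in Col-0. In HBI1-Ox it was at 6.61 and 5.06 CPM. The groups stood apart by a wide margin, with 17.1-fold and 13.5-fold higher means in Col-0 for GSTF7 and GSTF6. The log2 changes were -4.09 ± 0.11 and -3.73 ± 0.12 (± standard error, as for each log2 change), with edgeR adjusted p of 3.38e-05 and 6.07e-05. GSTF4, in the same cluster and shown after its values were seen, did not pass: it was at 9.08 and 9.89 CPM in Col-0 and at 9.89 and 11.03 CPM in HBI1-Ox (log2 0.14 ± 0.12, edgeR adjusted p = 0.495). GSTF5, with 7 and 1 Col-0 reads against 6 and 9 HBI1-Ox reads, was not tested.

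GSTF2 and GSTF3 fell as well. They lie on chromosomes 4 and 2 and have 94.5% identical coding sequences, close to the 94.3% of GSTF6 and GSTF7. GSTF2 (AT4G02520), whose protein binds camalexin and other small indole and flavonoid molecules, was at 167 and 171 CPM in Col-0 and at 82.4 and 77.4 CPM in HBI1-Ox. GSTF3 (AT2G02930) was at 15.9 and 14.8 CPM in Col-0 and at 5.59 and 6.18 CPM in HBI1-Ox. Within each group the libraries lay close together, and the groups did not overlap. GSTF2 had a log2 change of -1.08 ± 0.06 and GSTF3 of -1.39 ± 0.12 (edgeR adjusted p = 0.000267 and 0.00106).

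Exact stretches of sequence are shared within these pairs. Of the 36-base windows of the spliced transcript, 14.2% in GSTF6 and 13.9% in GSTF7 also occur in the other gene, and 6.82% in GSTF2 and 9.69% in GSTF3. At 50 bases the shares were 9.41% and 9.19% for GSTF6 and GSTF7, and 2.46% and 3.51% for GSTF2 and GSTF3. The labels give neither the read length nor how reads with several places were counted. The deposited number of reads without a unique place was 0 in each library. That does not tell whether such reads were removed earlier or counted, so separate values within each pair are uncertain to that extent. Summed over the cluster GSTF4 to GSTF7, which joins the reads of GSTF6 and GSTF7, the level was 180 and 187 CPM in Col-0 and 22.3 and 22.4 CPM in HBI1-Ox (log2 of the ratio of means -3.04, no test). The antisense neighbour TOC159 overlaps the GSTF2 gene over 1442 bases in TAIR10.1 and drew 2921 and 2237 Col-0 reads against 3381 and 2527 HBI1-Ox reads.

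In the tau class the deepest fall was in GSTU12 (AT1G69920; chromosome 1, 26334250 to 26335630, minus strand, 2 exons). The gene drew 146 and 55 Col-0 reads against 1 and 0 HBI1-Ox reads, or 0.38% of the level in Col-0 (95% exact interval for counting error only, 0.00957% to 2.14%). The Col-0 libraries differed from each other for GSTU12, at 10.8 and 4.77 CPM, but both stood far above HBI1-Ox. Its edgeR adjusted p was 0.00267; the fitted log2 change is no bound and ran from -6.93 without Col-0 library 1 to -9.69 without HBI1-Ox library 1. GSTU11, its neighbour, drew 57 and 3 Col-0 reads against 1 and 3 HBI1-Ox reads. Only Col-0 library 1 was high, and the filter removed GSTU11. Tested without any filter it was lower (edgeR adjusted p = 0.014), while with the HBI1-Ox libraries summed its edgeR adjusted p was 0.274.

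Among other tau genes that fell at least 2-fold, GSTU10 (AT1G74590) was at 10.3 and 10.5 CPM in Col-0 and at 4.95 and 4.71 CPM in HBI1-Ox (log2 -1.10 ± 0.13, edgeR adjusted p = 0.00335). GSTU2 (AT2G29480) was at 3.91 and 3.64 CPM in Col-0 and at 2.04 and 1.62 CPM in HBI1-Ox (log2 -1.03 ± 0.22, edgeR adjusted p = 0.0268). In both genes the groups were clearly apart, although GSTU2 rests on 53, 42, 38 and 23 reads. The model AT2G29485 overlaps GSTU2 over 849 bases on the opposite strand and had no counts of its own. Without a stated strand setting, its reads may be among those of GSTU2. The other 5 tau members that fell were outside the rule for named genes and were chosen after their values were seen. GSTU8 (AT3G09270) had a mean of 68.9 ± 9.5 CPM in Col-0 (± SD, n = 2 libraries) and of 35.6 ± 1.1 CPM in HBI1-Ox. GSTU1 (AT2G29490) fell from 27.6 ± 2.0 to 17.1 ± 2.0 CPM, and GSTU22 (AT1G78340) from 26.5 ± 4.7 to 15.6 ± 3.1 CPM. The falls of GSTU14 (AT1G27140), from 10.01 ± 0.78 to 6.57 ± 0.25 CPM, and of GSTU26 (AT1G17190), from 72.2 ± 0.8 to 55.8 ± 1.8 CPM, were smaller. Their log2 changes ran from -0.95 ± 0.10 for GSTU8 to -0.37 ± 0.06 for GSTU26, with edgeR adjusted p between 0.00235 and 0.0265.

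GSTU17 and GSTU27 were the 2 members that rose; they too were named after their values were seen. GSTU17 (AT1G10370, also called ERD9), known from work on drought and light responses, was at 19.1 and 23.0 CPM in Col-0 and at 35.2 and 37.8 CPM in HBI1-Ox. That is a log2 change of 0.80 ± 0.10 (edgeR adjusted p = 0.004). The neighbour GSTU18 (AT1G10360; shown after its values were seen), with which GSTU17 overlaps over 71 bases on the same strand, was at 45.7 and 43.5 CPM in Col-0. In HBI1-Ox GSTU18 was at 50.2 and 48.3 CPM, and it did not pass (log2 0.14 ± 0.07, edgeR adjusted p = 0.204). GSTU27 (AT3G43800), a single gene outside the tandem clusters, was at 59.3 and 50.1 CPM in Col-0 and at 78.6 and 73.8 CPM in HBI1-Ox (log2 0.48 ± 0.09, edgeR adjusted p = 0.0195). Both genes were higher in each HBI1-Ox library than in either Col-0 library.

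Of the 14 calls, GSTF2, GSTF3, GSTF6, GSTF7 and GSTU12 passed under all 13 alternatives. Without HBI1-Ox library 1 the other 9 did not pass, without HBI1-Ox library 2 8 did not, and after adding both HBI1-Ox libraries into 1 sample 7 did not. GSTU8 was then lower (edgeR adjusted p = 0.045), as was GSTU10 (0.0477), whereas GSTU17 missed (0.0547).

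**Figure D3:**
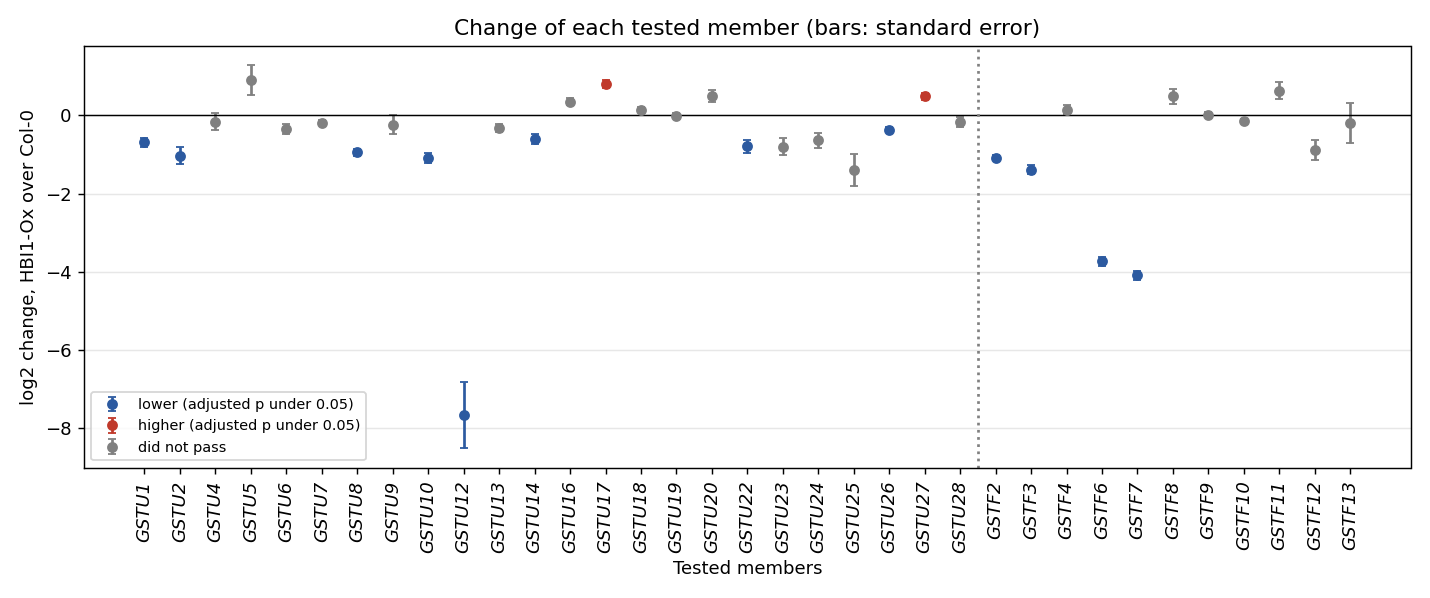
log2 change of HBI1-Ox over Col-0 for each of the 35 tested members, with standard errors as bars; blue and red points passed the test and grey points did not. The falls of GSTF6 and GSTF7 lie near -4, GSTU12 lies lower with a wide error, and the 2 rises stay below 1.

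None of the 3 most abundant members of either class passed in the test above. Without the low-count filter GSTU5, GSTU20 and GSTF8 were higher (edgeR adjusted p = 0.0343, 0.0157 and 0.0329). With total-count scaling GSTF10 was lower (edgeR adjusted p = 0.012). Levels of different genes are compared here as RPKM, that is CPM per kilobase of exon. Within the tau class GSTU19 (AT1G78380), an abundant detoxifying enzyme, led with 533 ± 33.5 RPKM in Col-0 and 531 ± 8.1 RPKM in HBI1-Ox (mean ± SD, n = 2 libraries, as below). GSTU5 (AT2G29450) was next with 159 ± 99.7 and 297 ± 6.8 RPKM, then GSTU20 (AT1G78370) with 112 ± 30.8 and 158 ± 1.9 RPKM. In Col-0 GSTU5 and GSTU20 did not differ beyond their spread. In the phi class GSTF9 (AT2G30860) was at 522 ± 26.3 and 526 ± 0.74 RPKM, GSTF10 (AT2G30870) at 376 ± 8.9 and 340 ± 3.0 RPKM and GSTF8 (AT2G47730) at 197 ± 64.9 and 275 ± 0.61 RPKM. GSTF9 and GSTF10 are tandem neighbours, and GSTF8 is a classic reporter of early stress responses. By mean RPKM the order of these 3 within each class was the same in both groups, and GSTF2 followed in the phi class with 115 ± 1.9 and 54.3 ± 2.4 RPKM. The place of GSTF8 depends on its exon length, 2395 bases over all its transcript models against 1233 for GSTF9. By CPM GSTF8 stood above GSTF9 in HBI1-Ox (658 and 660 against 649 and 648 CPM). At the other end, 6 members had too few reads to be tested: besides GSTF5 and GSTU11, GSTF14 had 4 to 7 reads per library, GSTU3 1 to 6, GSTU15 0 or 1, and GSTU21 none. The count of 0 for GSTU21 allows up to 3 reads in each library.

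By library, GSTU19 was at 624 and 571 CPM in Col-0 and at 602 and 589 CPM in HBI1-Ox (log2 -0.01 ± 0.06, edgeR adjusted p = 0.97). GSTF9 was at 667 and 621 CPM in Col-0 and at 649 and 648 CPM in HBI1-Ox (log2 0.01 ± 0.06, edgeR adjusted p = 0.927). For both genes the HBI1-Ox libraries lay between the Col-0 libraries. GSTF10 was at 419 and 433 CPM in Col-0 and at 383 and 387 CPM in HBI1-Ox (log2 -0.15 ± 0.05, edgeR adjusted p = 0.123). GSTU20 was at 154 and 104 CPM in Col-0 and at 180 and 183 CPM in HBI1-Ox (log2 0.49 ± 0.16, edgeR adjusted p = 0.0963). GSTF10 was lower and GSTU20 higher in HBI1-Ox without overlap, and neither passed. The log2 change of GSTU20 was 0.82 against Col-0 library 2 alone and 0.24 against library 1 alone, with edgeR adjusted p of 3.31e-25 and 1.69e-06; in such a setting the spread comes from the closely matched HBI1-Ox libraries alone. The 6 genes GSTU19, GSTU5, GSTU20, GSTF9, GSTF8 and GSTF10 took 70.6% and 67.8% of all tau and phi reads in the Col-0 libraries, against 80.7% and 80.6% in the HBI1-Ox libraries. The summed level of all 41 genes was 3876 and 3246 CPM in Col-0 and 3538 and 3521 CPM in HBI1-Ox. With this TMM scaling both HBI1-Ox libraries lay between the Col-0 libraries. As a share of all reads on genes, without that scaling, the sum was 0.402% and 0.347% in Col-0. It was 0.335% in each HBI1-Ox library, below both Col-0 libraries.

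A set of members differed between the Col-0 libraries themselves. Of the 35 tested, 7 were at least 1.5-fold higher in Col-0 library 1 than in library 2 (3.64% of all tested genes), and 0 were so in the other direction (4.56%). They were GSTU5, GSTU9, GSTU12, GSTU24, GSTU25, GSTF8 and GSTF13, and all but GSTU12 missed the test of HBI1-Ox against Col-0. GSTU25 (AT1G17180), an enzyme able to detoxify the explosive TNT, was at 112 and 40.9 CPM in Col-0 and at 28.7 and 30.4 CPM in HBI1-Ox. GSTU24 (AT1G17170), which acts on TNT as well, was at 72.6 and 46.8 CPM in Col-0 and at 38.9 and 38.01 CPM in HBI1-Ox. Both were below each Col-0 library in HBI1-Ox, by an amount that depended on the library: against Col-0 library 1 GSTU25 stood at 0.263 of the level, and against library 2 at 0.721. Their log2 changes were -1.39 ± 0.41 and -0.64 ± 0.19 (edgeR adjusted p = 0.0714 and 0.0674).

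GSTU5 went the other way. It was at 292 and 113 CPM in Col-0 and at 383 and 371 CPM in HBI1-Ox, and so 1.29-fold higher than Col-0 library 1 and 3.35-fold higher than library 2 (log2 0.90 ± 0.38, edgeR adjusted p = 0.166). GSTF8 was at 581 and 361 CPM in Col-0 and at 658 and 660 CPM in HBI1-Ox (log2 0.48 ± 0.20, edgeR adjusted p = 0.153). In both genes the HBI1-Ox libraries were above both Col-0 libraries and nearer to the higher one, library 1. The HBI1-Ox mean was 1.29-fold that library for GSTU5 and 1.13-fold for GSTF8. GSTU9 (AT5G62480) was at 30.8 and 17.2 CPM in Col-0 and at 21.1 and 19.8 CPM in HBI1-Ox, between the Col-0 libraries. GSTF13 had 17, 5, 15 and 10 reads in the 4 libraries in the same order. Without Col-0 library 1 the log2 change was 1.75 for GSTU5, 0.88 for GSTF8, -0.47 for GSTU25 and 0.27 for GSTU9. Without Col-0 library 2 the values were 0.37, 0.18, -1.93 and -0.58, so that GSTU9 changed sign. Between the HBI1-Ox libraries 1 of the 35 members was at least 1.5-fold apart, GSTU12 with 1 and 0 reads, against 4.03% of all tested genes.

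**Figure D4:**
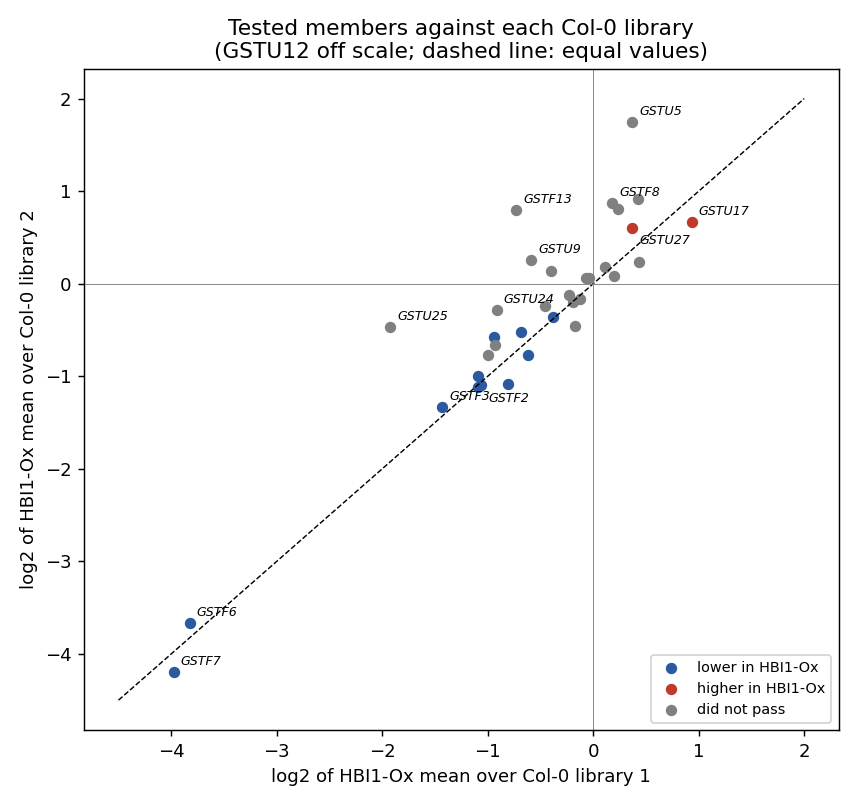
log2 of the HBI1-Ox mean over Col-0 library 1 (horizontal axis) and over Col-0 library 2 (vertical axis) for 34 tested members, with GSTU12 off scale; points on the dashed line have equal values. GSTF2, GSTF3, GSTF6 and GSTF7 lie near the line, while GSTU5, GSTF8, GSTU25 and GSTF13 lie off it, on the side of higher levels in Col-0 library 1.

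The other members that did not pass were GSTU4, GSTU6, GSTU7, GSTU13, GSTU16, GSTU18, GSTU23, GSTU28, GSTF4, GSTF11 and GSTF12, with log2 changes from -0.89 to 0.63. GSTF12 (TT19), the anthocyanin carrier, drew 33 and 24 Col-0 reads against 22 and 18 HBI1-Ox reads (log2 -0.89 ± 0.26, edgeR adjusted p = 0.0638). GSTF11 drew 46 and 28 Col-0 reads against 82 and 67 HBI1-Ox reads (log2 0.63 ± 0.22, edgeR adjusted p = 0.104). Its annotated gene lies wholly inside NAC045 on the opposite strand, which had 22 to 33 reads per library. GSTU13 (AT1G27130), linked to indole defence against fungal entry, was at 89.0 and 108 CPM in Col-0 and at 78.2 and 79.2 CPM in HBI1-Ox (log2 -0.32 ± 0.10, edgeR adjusted p = 0.0718). The HBI1-Ox libraries lay beyond both Col-0 libraries in each of these 3 genes, and none passed.

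Within most tandem clusters some members passed and others did not; differences between neighbours were not tested. In GSTU1 to GSTU7, GSTU1 and GSTU2 fell while GSTU4, GSTU5, GSTU6 and GSTU7 did not pass and GSTU3 was not tested. The summed level was 402 and 222 CPM in Col-0 and 471 and 456 CPM in HBI1-Ox, most of it GSTU5. The sum over GSTU24 to GSTU26 was 258 and 159 CPM in Col-0 and 122 and 126 CPM in HBI1-Ox, below both Col-0 libraries. For GSTU19 to GSTU23 it was 811 and 701 CPM in Col-0 and 797 and 791 CPM in HBI1-Ox; there GSTU22 fell, GSTU19, GSTU20 and GSTU23 did not pass, and GSTU21 was not tested. GSTF9 and GSTF10 together were at 1086 and 1054 CPM in Col-0 and at 1032 and 1035 CPM in HBI1-Ox. The remaining pairs had sums of 99.5 and 117 against 84.6 and 85.9 CPM (GSTU13 and GSTU14), 18.0 and 20.6 against 24.4 and 24.2 CPM (GSTU15 and GSTU16), and 64.8 and 66.5 against 85.3 and 86.1 CPM (GSTU17 and GSTU18). Those 3 pairs were apart between groups without overlap, the first lower and the others higher in HBI1-Ox. No test was made of sums.

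**Figure D5:**
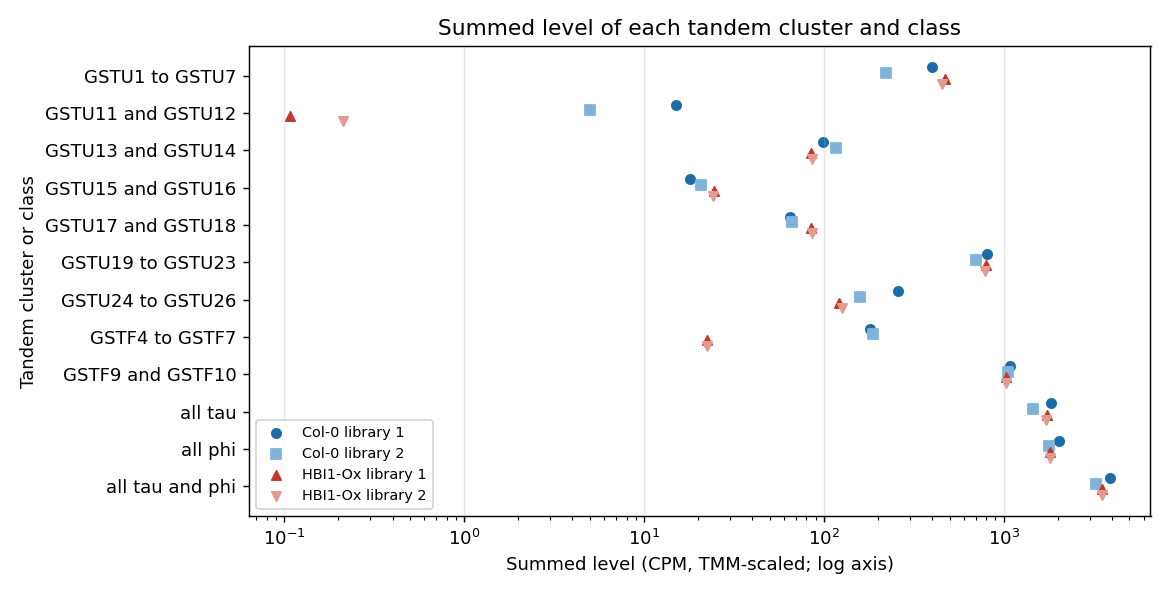
Summed level of each tandem cluster, of each class and of all 41 genes (CPM, log axis), one symbol per library. GSTF4 to GSTF7 and GSTU11 with GSTU12 stand lower in HBI1-Ox, while GSTF9 with GSTF10 and the sum of all genes lie close together in the 4 libraries.

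The 250 bases before the start were searched in all members for the motifs above, on both strands, and for CANNTG, the general E-box. The as-1 core TGACG was found in 14 of the 41 (11 tau and 3 phi), and in 18.6% of 27443 nuclear protein-coding promoters. The W-box core TTGAC was found in 24 members and in 44.9% of all promoters. CACGTG was present in 3 members (6.49% of all promoters), namely GSTU17, GSTU18 and GSTF6. CATGTG was present in 7 (11.1%) and CANNTG in 23 (55.3%). Of the 12 members that fell, 8 held the W-box core, 3 the as-1 core and 1, GSTF6, CACGTG. Of the 7 members that were higher in Col-0 library 1, 5 held the as-1 core, namely GSTU5, GSTU9, GSTU24, GSTU25 and GSTF8, and 4 the W-box core. Each window lies before the annotated start of the whole gene. For a gene with several transcript models, such as GSTF8, single transcripts may start further downstream. These are matches of letters and were not tested.

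Other classes of glutathione transferase were read from the same fit. Of 13 tested genes of the zeta, theta, lambda, dehydroascorbate reductase, TCHQD and microsomal classes, 1 fell and 1 rose. Among all tested genes 7.15% were lower and 8.33% higher, so these counts are near the share over all genes. The same shares stand beside the counts of the lists that follow. The median log2 change of the 13 was 0.041. GSTL1, of the lambda class, was at 6.42 and 4.25 CPM in Col-0 and at 1.56 and 1.41 CPM in HBI1-Ox (log2 -1.85 ± 0.27, edgeR adjusted p = 0.00724). GSTL2 rose by 0.42 ± 0.08 on the log2 scale (edgeR adjusted p = 0.0208). Of 11 tested genes for glutathione supply and transport, 3 fell and 2 rose, with a median log2 change of -0.042. ABCC3, a vacuolar pump of glutathione conjugates, was at 98.8 and 70.2 CPM in Col-0 and at 42.8 and 41.4 CPM in HBI1-Ox (log2 -1.01 ± 0.15, edgeR adjusted p = 0.00775). The pumps ABCC1 and ABCC2 did not pass. GR1, a glutathione reductase, rose by 0.45 ± 0.07, GR2 by 0.26 ± 0.05, and the synthesis gene GSH2 had a log2 change of -0.30 ± 0.07 and fell. GGT1, a gamma-glutamyl transferase gene, fell too (log2 -0.36 ± 0.09), while its relative GGT4 did not pass (log2 0.08 ± 0.07, edgeR adjusted p = 0.494). None of these 7 calls passed when either HBI1-Ox library was left out or when both were added together.

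Of 12 genes of chemical detoxification, a list of genes known to be induced together with tau members by chemicals and of their TGA and SCL14 regulators, 3 fell, 1 rose and 8 did not pass (median log2 change -0.087). CYP81D8, a cytochrome P450 induced by many chemicals, was at 30.3 and 5.29 CPM in Col-0 and at 2.04 and 2.25 CPM in HBI1-Ox. Its log2 change was -3.08 ± 0.81 (edgeR adjusted p = 0.0488). Against Col-0 library 2 alone it was -1.30, against library 1 alone -3.82, and it missed with DESeq2 (adjusted p = 0.0609) and limma-voom (0.167). UGT74E2, a glycosyltransferase gene, was at 37.4 and 5.73 CPM in Col-0 and at 12.5 and 11.1 CPM in HBI1-Ox, so that the groups overlapped. Like the 7 members above, both were higher in Col-0 library 1, by 5.72-fold and 6.52-fold, the largest such ratios in the list. The other genes of the list had ratios of Col-0 library 1 over library 2 from 0.859 (TGA6) to 2.09 (DTX1). Among them UGT73B4 was at 1.5, OPR1 at 1.02, CYP81D11 at 1.01 and OPR2 at 0.928. DTX1, an efflux carrier that passed the low-count filter through its Col-0 reads alone, fell, with 96 and 39 Col-0 reads against 4 and 7 HBI1-Ox reads (log2 -3.95 ± 0.55, edgeR adjusted p = 0.00574). Against Col-0 library 2 alone the log2 change was -3.29, and DTX1 missed without HBI1-Ox library 1 (edgeR adjusted p = 0.0861) or 2 (0.0535). OPR1, an oxophytodienoate reductase gene, fell by 0.55 on the log2 scale (SE 0.06, edgeR adjusted p = 0.00221). CYP81D11, a close relative of CYP81D8, was at 41.9 and 41.3 CPM in Col-0 and at 92.6 and 95.7 CPM in HBI1-Ox, and rose by 1.18 ± 0.06 (edgeR adjusted p = 0.000226); it passed under all 13 alternatives. TGA2, TGA5, TGA6 and SCL14 had log2 changes between 0.00 and 0.07 and did not pass. Of 8 tested anthocyanin genes, TT7 rose (log2 0.71 ± 0.15, edgeR adjusted p = 0.026) and 7 did not pass. OPR1, CYP81D8 and TT7 missed without either HBI1-Ox library and with these summed.

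Tissue markers were read beside these results. The summed level of 6 photosynthetic genes was 27610 and 26040 CPM in Col-0 and 36130 and 37500 CPM in HBI1-Ox, and 5 of the 6 were higher. LHCA1, LHCB2.1 and LHCB3 passed under all 13 alternatives, whereas LHCB1.1 and PSAD1 missed without either HBI1-Ox library and with these summed, and LHCB1.1 also with total-count scaling (edgeR adjusted p = 0.0704). For 11 root genes the sum was 497 and 518 CPM in Col-0 and 485 and 463 CPM in HBI1-Ox; 2 of the 10 tested, CASP2 and PHT1;1, were lower. Both missed with DESeq2 (adjusted p = 0.166 and 0.0671), without either HBI1-Ox library and with these summed, and PHT1;1 also with the replicate block (edgeR adjusted p = 0.0521). For 9 seed genes it was 23.3 and 33.1 CPM in Col-0 and 25.2 and 27.8 CPM in HBI1-Ox, with 2 of 8 tested lower, ABI3 and SESA4. SESA4 was tested through its 14 and 10 Col-0 reads alone, against 2 and 0 HBI1-Ox reads, and both genes missed without either HBI1-Ox library and with these summed. No marker was at 0 in all 4 libraries. The part of tissue makeup in the changes above was not tested.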

How the data were processed

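Total RNA of whole seedlings was sequenced per the labels' protocols from 4 barcoded libraries made with a TruSeq kit. Deposited by the authors were raw counts of reads for every gene, not normalized, plus their own table of log2 ratios between the groups. Per the submitters' processing notes TopHat, DESeq and the build TAIR10 were used; no source states versions, the counter, its strand setting or how listed genes were chosen. Rows of reads not given to a gene (13.2% to 13.7% of reads per library) were left out. They include reads marked ambiguous (1.19% to 1.33%).

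Genes were filtered with filterByExpr (minimum count 10, minimum total 15), scaled with TMM and compared by the quasi-likelihood test of edgeR 4.0.16 (R 4.3.3; glmQLFit, glmQLFTest). The fit had no block and 2 residual degrees of freedom. P-values of 20320 genes were adjusted after Benjamini and Hochberg, with a threshold of 0.05. Standard errors are the absolute log2 change divided by the square root of F. On simulated counts for HBI1-Ox against Col-0 (20127 genes tested) the procedure found 86% of 2-fold changes, 69% of 1.5-fold changes, and called 7 of 19929 unchanged genes. The simulated counts had the same dispersion for every gene and in both groups. In the data the Col-0 libraries differed more than the HBI1-Ox libraries (mean chi-square 7.77 and 1.23). These rates therefore do not describe the test under such unequal spread. Sums got no test, since the smallest exact p that 4 libraries allow is 0.33.

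Members, lists and alternatives were chosen with earlier results of these data known. The rule for per-library values took members that passed with a log2 change of at least 1 in size, the 3 highest per class and neighbours that go against their cluster, of which there were none. Other lists name up to 3 passing genes with the smallest adjusted p, and others named there were chosen after their values were seen. Exon lengths, coding identity (global alignment of the longest coding sequences, used where protein identity was planned) and promoters came from the RefSeq annotation of TAIR10.1, which matched all 41 members and 32709 loci. Of the members 12 overlap another gene model, 9 of them on the opposite strand. Without a stated strand setting, reads of such partners may not be told apart. Same-numbered libraries did not deviate together (correlation -0.0218 over 12524 genes). The HBI1-Ox libraries differed by little more than counting error (mean chi-square 1.23), so this check cannot show whether the numbers pair the libraries. Alternatives were RLE and total-count scaling, no filter, a 1 CPM minimum, limma-voom (limma 3.58.1), DESeq2 1.42.0, a replicate block, each library left out, the HBI1-Ox libraries summed, and organellar, ribosomal RNA and HBI1 genes left out.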

Additional observations from a re-analysis of the deposited data

How the results depend on the processing

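No tallied result reversed its direction in any alternative where either value passed the test. For UGT74E2, which did not pass (log2 -0.90), the direction depended on the Col-0 library. Its HBI1-Ox mean was 0.316 of the level in Col-0 library 1 and 2.06 of that in library 2. With the replicate number as a block the 14 calls were the same, with GSTU24 and GSTU25 lower as well (14 lower and 2 higher). Among the other lists the block took 1 call, PHT1;1 of the root markers. The block moved no count of the transferase, supply, detoxification or anthocyanin lists by over 1.5 times. Whether the numbers pair the libraries could not be told. Higher members numbered 2 with all libraries, 6 without the low-count filter and 0 with the HBI1-Ox libraries summed; with one library left out they ranged from 0 to 7. Lower members numbered 12 with all libraries, 20 with total-count scaling, which moved the median log2 change of all genes to -0.162, and 7 with the HBI1-Ox libraries summed; with one library left out they ranged from 5 to 22. DESeq2 lost GSTU2 and GSTU14 and gained GSTU24, and from the lists it lost GSH2 (adjusted p = 0.0808), GGT1 (0.215), CYP81D8, CASP2 and PHT1;1. For the other lists, leaving out one library gave 0 to 4 higher and 0 to 3 lower transferases of other classes, 0 to 4 higher and 0 to 5 lower supply and transport genes, 1 to 2 higher and 0 to 6 lower detoxification genes, and 0 to 3 higher and 0 to 2 lower anthocyanin genes. With total-count scaling 3 other transferases were lower, and 1 supply gene was higher and 5 were lower. Summing the HBI1-Ox libraries left these 4 lists with 0 calls except 1 higher and 1 lower detoxification gene, and the shoot markers with LHCA1, LHCB2.1 and LHCB3. A group reduced to 1 library borrows its spread from the other group, and that of the HBI1-Ox libraries is small. The cause of these shifts was not tested. Low counts kept 6 members from being tested. Exact counting intervals and floors cover counting error only.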
